A study of Mus musculus with 24 samples.

Results

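miR-126 is the microRNA of the vessel wall, and both of its strands, mmu-miR-126-3p and mmu-miR-126-5p (called miR-126-3p and miR-126-5p in what follows), were measured here with the nCounter assay in the JygMC(A) mouse model of mammary carcinoma. They are 2 of the 566 mouse miRNAs on the panel and were taken by name, and miR-126 itself was picked with earlier results of these data known. The 24 samples comprised 5 carcinoma areas and 7 EMT-like areas of primary tumors (PT), 4 lung metastases, 2 samples of normal mammary gland (NMG), 2 of normal lung parenchyma, 2 monolayer cultures and 2 cultures of 3D-spheres. The tumors had grown from JygMC(A) cells carrying GFP and luciferase reporters in the mammary fat pad of BalbC nude mice, which by the study's methods were females a few weeks old. Primary tumors were taken out some weeks after the injection, and lung metastases were followed up later. The carcinoma areas were those of epithelial form, and the EMT-like areas those of spindle-shaped cells. Both cultures held the same reporter line, on plastic or as third-generation spheres on low-adherence plates, and contained no host cells. Tissue was collected by laser capture, several tumor samples came from the same animals, and 1 sample each of carcinoma, EMT-like area and metastasis carries a label that names 3 animals. The 2 NMG and the 2 normal lung samples were taken from the same pair of animals.

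A single hairpin yields both strands. The hairpin lies within the Egfl7 gene, which encodes a protein secreted by endothelial cells, and in most tissues miR-126 is made by endothelium and by some blood cells. The 3p strand is known for repressing Spred1 and a regulatory subunit of PI3-kinase, both of which restrain signalling from the VEGF receptor, and for keeping vessels intact. The 5p strand is known for repressing Dlk1 in endothelial cells, and in breast cancer a low level of miR-126 has been linked to metastasis and to the recruitment of endothelial cells. In RefSeq (build GRCm38.p6) the Mir126a hairpin is at chr2:26591357-26591429 on the plus strand, inside Egfl7 at chr2:26581083-26592682. The panel's older name was matched to Mir126a through its synonyms, and the sequences below are shown because the 3p strand carries most of the signal reported here. The seed, bases 2 to 8 of the mature strand, is in capitals in the first sequence, and the 3p strand is in capitals in the hairpin.
mmu-miR-126a-3p: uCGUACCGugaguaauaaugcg
miR-126a hairpin: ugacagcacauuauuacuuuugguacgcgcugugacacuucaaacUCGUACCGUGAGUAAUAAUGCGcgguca
The mature 3p strand has 22 bases at chr2:26591402-26591423, which are bases 46 to 67 of the 73-base hairpin. Among the 1679 mouse mature miRNAs of the table, no other one shares this seed, so miR-126-3p has no seed family there. The antisense gene Mir126b lies on the minus strand at chr2:26591363-26591420, within the same hairpin, and no probe of the panel is named for it.

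The deposited values are counts from which each lane's mean of 6 negative control probes had been subtracted, so values below 0 occur, and they are not scaled between lanes. The mouse miRNA values, with those below 0 set to 0, summed to between 26420 and 46507 in the cultures, which lay lowest, to between 62583 and 184501 in the tumor samples, to between 525697 and 560247 in NMG, and to 590022 and 2335740 in normal lung, whose replicate 2 stood apart. A value was counted as detected when it exceeded the mean plus 2 SD of the lane's negative controls, a limit of 4 to 21.4 across lanes. For comparisons, lanes were scaled by TMM, and such values are called normalized. Fold changes are differences of log2(normalized value + 1) from limma, p-values were adjusted over 583 tested probes, and a call is an adjusted p below 0.05. Where samples of a group lie above or under all of another, the share of all probes that separate likewise was not counted. The 2 probes may count with unequal efficiency, so the ratio of the strands is comparable between samples and is not a ratio of molecules. In captured tissue, fewer cells of a type and less RNA per cell cannot be told apart.

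miR-126-3p was at the top of the normal tissues and absent from the cultured tumor cells at this depth. Its deposited value was 99459 and 352434 in the 2 normal lung samples and 39203 and 26619 in the 2 NMG samples. It ranked between 1 and 3 among the mouse miRNAs of these 4 lanes and made up 15.1% to 16.9% of the mouse miRNA signal of normal lung and 5.06% to 6.997% of that of NMG. In carcinoma areas the values were 1357, 859, 1830, 1284 and 1122. In EMT-like areas the lowest value was 1245, the median 2254 and the highest 3259. In lung metastases the values were 2187, 1268, 601 and 1566. All 16 tumor samples therefore lay under both normal tissues, with ranks of 10 to 27 and 0.606% to 2.03% of the mouse miRNA signal. In the monolayer the values were -9 and -7, and in the spheres -10 and -6, all under the limits of 11.1 to 21.4 in those lanes.

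miR-126-5p followed the same order of tissues at lower values. It was 9948 and 42771 in normal lung and 3626 and 2934 in NMG. In carcinoma areas the values were 88, 44, 149, 105 and 86. In EMT-like areas the lowest value was 92, the median 189 and the highest 243. In lung metastases the values were 178, 89, 37 and 113. Every tumor sample exceeded its detection limit for the 5p strand, with values between 37 and 243, so this strand carries more counting error than the other. In the cultures it was -12 and -8 in the monolayer and -12 in both sphere samples, all under the limit.

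**Figure D1:**
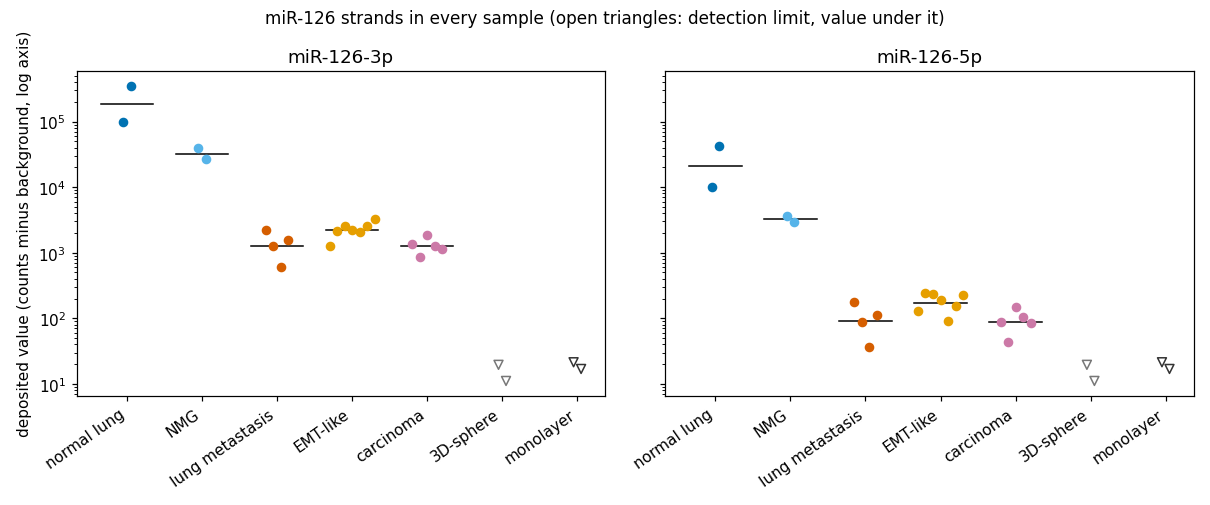
Deposited values of miR-126-3p and miR-126-5p in each of the 24 samples (vertical log axis, counts minus background), by group. Filled points are single samples and lines the geometric means; open triangles stand at the detection limit of the 4 culture lanes, where both strands were under it, and all 16 tumor samples lie between the cultures and the 4 normal samples.

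On the normalized scale normal lung was highest on both strands, then NMG, then EMT-like areas and lung metastasis, then carcinoma and, under the limit, both cultures. For miR-126-3p the normalized value was 62080 ± 665 in normal lung and 13019 ± 4436 in NMG (SD, n = 2 each). In the tumor it was 2088 ± 914 in the 4 metastases, 2007 ± 402 in the 7 EMT-like areas and 1481 ± 278 in the 5 carcinoma areas (SD). For miR-126-5p the normalized value was 6877 ± 1010 in normal lung, 1292 ± 286 in NMG, 154 ± 77.8 in lung metastasis, 161 ± 54.9 in EMT-like areas and 108 ± 35.6 in carcinoma areas (SD, same n). The place of metastasis among the tumor groups depends on the mean used: for the 3p strand the geometric mean was 1871 in metastasis and 1965 in EMT-like areas, the reverse of the order of the arithmetic means. The 3 tumor groups are neighbors whose values overlapped on both strands, whereas normal lung, NMG and the tumor groups were separated without overlap. The metastases varied the most of the 3 tumor groups: their coefficient of variation was 43.8% for the 3p strand, against 18.8% in carcinoma and 20.02% in EMT-like areas. That spread rests on lung metastasis replicate 3, without which it was 12.4% for the 3p strand, under both other tumor groups, and 20.5% for the 5p strand (50.5% with it).

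The comparison of tumor with NMG asks which miRNAs differ between malignant and normal mammary tissue. miR-126-3p fell by 3.12 on the log2 scale in carcinoma areas (SE 0.38, limma adjusted p = 1.82e-06), an 8.67-fold difference with a 95% interval of 5.04 to 14.9. miR-126-5p fell by 3.63 (SE 0.49, limma adjusted p = 6.42e-06), a 12.4-fold difference with an interval of 6.12 to 24.98. All 5 carcinoma samples lay under both NMG samples on each strand, but how many of all probes do the same was not counted. Of all probes tested, 29.3% were called in this comparison, 139 lower and 32 higher, with a median log2 change of -0.68 over all of them. Ranked by fold change downward, the 5p strand was at place 28 and the 3p strand at place 45 of the 583 probes. The level left in carcinoma areas was 11.5% of that of NMG for the 3p strand and 8.09% for the 5p strand.

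EMT-like areas gave a similar picture. miR-126-3p fell by 2.68 (SE 0.36, limma adjusted p = 7.74e-06), a 6.43-fold difference with a 95% interval of 3.83 to 10.8. miR-126-5p fell by 3.06 (SE 0.47, limma adjusted p = 3.26e-05), an 8.31-fold difference with an interval of 4.24 to 16.3. All 7 EMT-like samples were under both NMG samples on each strand, but how many of all probes do the same was not counted. The limma fit called 24.9% of all probes in this comparison. The NMG samples are shared with the carcinoma comparison, so the 2 comparisons are not independent. Direction and call held on both strands under every alternative, but the sizes depended on the scaling. For miR-126-3p they ran from -2.66 to -4.69 in carcinoma areas and from -2.02 to -3.87 in EMT-like areas.

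Lung metastases were compared with normal lung parenchyma, which carries labels of other animals. miR-126-3p fell by 5.05 on the log2 scale (SE 0.39, limma adjusted p = 6.27e-10), a 33.2-fold difference with a 95% interval of 18.9 to 58.1. miR-126-5p fell by 5.67 (SE 0.51, limma adjusted p = 6.51e-09), a 51.0-fold difference with an interval of 24.7 to 106. All 4 metastases lay under both normal lung samples on each strand. In this comparison 49.2% of all probes were called, 246 of them lower, with a median log2 change of -0.90 over all of them. The 5p strand was at place 13 and the 3p strand at place 19 of the 583 probes ranked downward. The metastases kept 3.02% of the normal lung level of the 3p strand and 1.96% of that of the 5p strand. With other scalings the fall of miR-126-3p ran from -3.54 to -7.56 and that of miR-126-5p from -4.17 to -8.18, both called throughout.

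The 2 normal tissues, taken from the same pair of animals, also differed from each other. The fit treats their samples as independent and takes the spread from all 7 groups. Normal lung exceeded NMG by 2.30 on the log2 scale for miR-126-3p (SE 0.45, limma adjusted p = 0.000888) and by 2.42 for miR-126-5p (SE 0.58, limma adjusted p = 0.00666). These are 4.91-fold and 5.36-fold differences, with both normal lung samples above both NMG samples on each strand. Of all probes, 11.7% were called, 61 higher and 7 lower. The call of the 5p strand was lost when lanes were scaled by the 100 most abundant miRNAs (1.53, limma adjusted p = 0.0724) or by the miRNA total (1.55, adjusted p = 0.0703), and without normal lung replicate 2 (adjusted p = 0.0556) or NMG replicate 2 (adjusted p = 0.0719). That of the 3p strand was lost when only these 4 samples were fitted (adjusted p = 0.0590).

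The difference between tumor and normal tissue was then compared between the 2 organs. The log2 difference of metastasis from normal lung was lower than that of PT from NMG by 2.19 for miR-126-3p (SE 0.52, limma adjusted p = 0.00635, log2 value -2.19). For miR-126-5p it was lower by 2.38 (SE 0.67, adjusted p = 0.0223, log2 value -2.38). The same value equals the difference of metastasis from PT (0.11 and 0.04) minus that of normal lung from NMG (2.30 and 2.42). It therefore comes almost wholly from the difference between the normal tissues, whose samples share animals and were treated as independent. In this test of the interaction 11.5% of all probes were called, 63 lower and 4 higher. Both calls were lost with scaling by the 100 most abundant miRNAs (-1.25, adjusted p = 0.130, and -1.45, adjusted p = 0.162) and by the miRNA total (-1.28, adjusted p = 0.127, and -1.47, adjusted p = 0.159). Without NMG replicate 2 the adjusted p was 0.0638 for the 3p strand and 0.121 for the 5p strand, and the 5p call was also lost without NMG replicate 1 (adjusted p = 0.0530) or normal lung replicate 2 (adjusted p = 0.102).

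**Figure D2:**
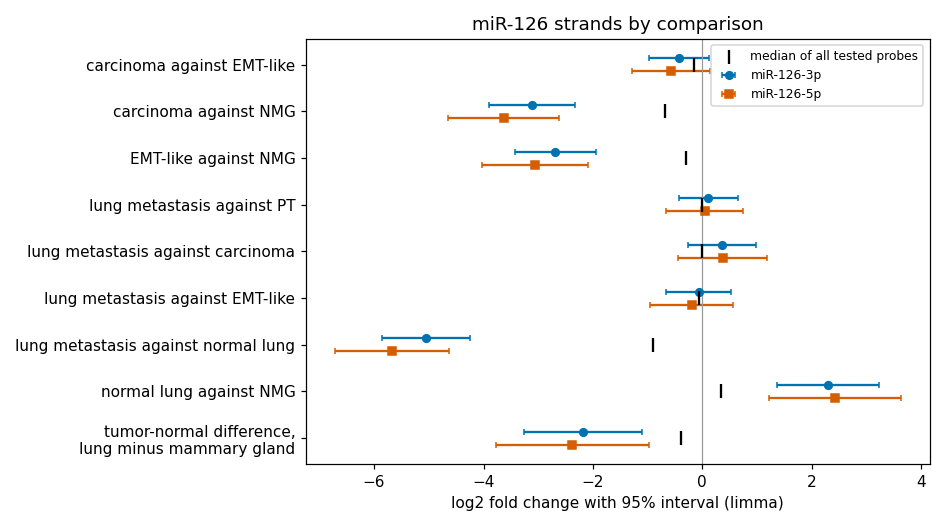
Log2 fold changes of miR-126-3p (circles) and miR-126-5p (squares) in each comparison, with 95% intervals from limma (horizontal axis), and the median of all 583 tested probes as a bar. Both strands lie far under the median in the comparisons of tumor with normal tissue (for example -5.05 and -5.67 against a median of -0.90 in lung). Between tumor groups they lie from -0.57 to 0.38, with intervals that all include 0.

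Between the tumor groups no difference in miR-126 was called. For carcinoma against EMT-like areas the log2 difference of miR-126-3p was -0.43 with a 95% interval of -0.98 to 0.12 (limma adjusted p = 0.482), and 6 of the 7 EMT-like samples were above every carcinoma sample. For miR-126-5p it was -0.57 with an interval of -1.28 to 0.14 (limma adjusted p = 0.470), and 4 of the 7 were above every carcinoma sample. Only 0.172% of all probes, a single one, was called in this comparison. Other scalings gave -0.82 to -0.28 for the 3p strand and -0.96 to -0.43 for the 5p strand, and a higher background gave -0.83 and -1.12, none of them called. With the animal as a block, at an estimated correlation within a block of -0.0051, the values were -0.43 (limma adjusted p = 0.484) and -0.57 (limma adjusted p = 0.473). Within 4 animal labels that gave both areas, including the label that names 3 animals, the 5p strand was lower in the carcinoma area in 4 of 4. The mean log2 difference was -0.95 (exact sign-flip permutation p = 0.125, the smallest that 4 pairs allow). The 3p strand was lower in 3 of 4 (mean -0.43, exact permutation p = 0.25).

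Animals were labelled in 2 series, lettered and numbered, and the comparison of carcinoma with EMT-like areas was repeated within each. For miR-126-3p the log2 difference was -0.20 in the lettered series (3 against 2 samples, exact permutation p = 0.800) and -0.45 in the numbered series (2 against 5 samples, exact permutation p = 0.0476, the smallest possible). For miR-126-5p it was -0.94 (exact permutation p = 0.3) and -0.22 (exact permutation p = 0.619). The direction was the same in both series on each strand.

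Lung metastases did not differ detectably from PT. The log2 difference was 0.11 with a 95% interval of -0.43 to 0.65 for miR-126-3p (limma adjusted p = 0.995) and 0.04 with an interval of -0.66 to 0.74 for miR-126-5p (limma adjusted p = 1), while 3.09% of all probes were called. Against carcinoma areas the values were 0.36 (interval -0.27 to 0.99) and 0.38 (interval -0.44 to 1.19), with 1.37% of all probes called. Within the 2 animal labels that gave both kinds of sample, including the label that names 3 animals, metastasis was higher in 2 of 2 on each strand. The mean log2 difference was 0.80 for the 3p strand and 0.89 for the 5p strand (exact sign-flip permutation p = 0.5 for each, the smallest that 2 pairs allow). Against EMT-like areas the values were -0.07 (interval -0.66 to 0.51) and -0.20 (interval -0.96 to 0.56), with 7.72% of all probes called. Within 4 animal labels, again including that label, the mean differences were -0.01 and -0.14 (exact sign-flip permutation p = 1 and 0.625). Lung metastasis replicate 3 was the lowest of all tumor samples on both strands, at 601 and 37. Without it the difference from EMT-like areas became 0.36 and 0.29 and that from PT 0.54 and 0.53, none of them called. Within the numbered series, the 3 metastases differed from 7 PT samples by -0.27 for the 3p strand (exact permutation p = 0.533) and by -0.33 for the 5p strand (exact permutation p = 0.542), so the sign of this small difference was not stable. The lettered series held 1 metastasis sample, too few for a value of its own.

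The cultures give the level in the tumor cells when no host tissue is present. Neither strand exceeded the detection limit in any of the 4 cultures. Set against that limit in each culture lane, miR-126-3p was at least 52.4-fold higher in PT and at least 56.5-fold higher in lung metastasis. miR-126-5p was at least 3.93-fold higher in PT and at least 4.05-fold higher in metastasis. The limma test instead compared PT with culture values that were all floored at 0 and so had no spread. Its adjusted p, 5.45e-19 for the 3p strand and 1.32e-13 for the 5p strand, is no test of these bounds. All 12 PT samples were above all 4 cultures on both strands, but how many of all probes do the same was not counted. The limma fit called 30.4% of all probes in this comparison. NMG exceeded the cultures at least 381-fold for the 3p strand, and normal lung at least 1874-fold. These bounds hold for TMM scaling. With the other scalings the bound for PT ran from 23.2-fold to 98.5-fold on the 3p strand and from 1.74-fold to 7.39-fold on the 5p strand, and that for metastasis from 25.8-fold to 71.7-fold and from 1.85-fold to 5.15-fold, where the lowest bounds came from the sum of the top 100 miRNAs. The comparison of 3D-spheres with the monolayer has no value for miR-126, since both groups were under the limit. The cultures had the fewest counts of all lanes, and levels beneath those limits were not detectable at this depth.

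The ratio of the 2 strands needs no scaling between lanes and was available for the 20 tissue samples. In normal lung the 3p value was 9.998 and 8.24 times the 5p value, and in NMG 10.8 and 9.07 times. In carcinoma areas the ratio was 15.4, 19.5, 12.3, 12.2 and 13.0. In EMT-like areas the lowest ratio was 8.81, the median 11.9 and the highest 22.7. In lung metastases it was 12.3, 14.2, 16.2 and 13.9. All 5 carcinoma and all 4 metastasis samples lay above all 4 normal samples, while 4 of the 7 EMT-like samples did. The geometric means were 14.3 in carcinoma, 12.9 in EMT-like areas, 14.1 in metastasis, 9.90 in NMG and 9.08 in normal lung.

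**Figure D3:**
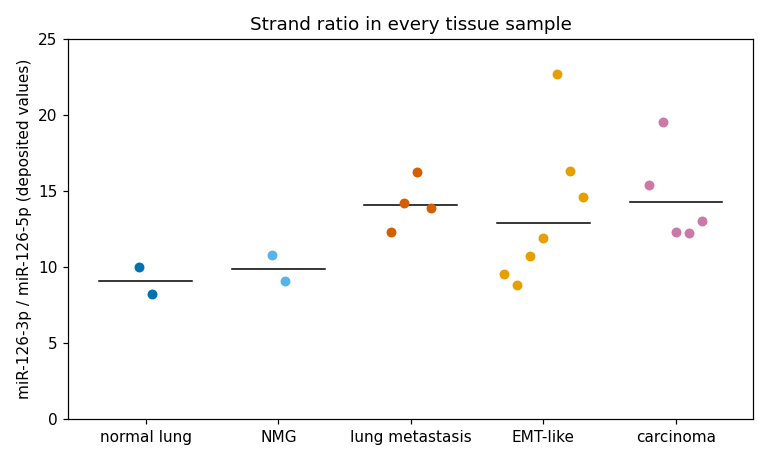
Ratio of the deposited miR-126-3p value to the miR-126-5p value in each of the 20 tissue samples (vertical axis starting at 0), with lines at the geometric means of the groups. The 4 normal samples lie between 8.24 and 10.8, and the EMT-like areas spread from 8.81 to 22.7.

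None of the 8 comparisons of the strand ratio passed. The largest differences were against normal tissue: the ratio was 1.55-fold higher in metastasis than in normal lung (exact two-sided permutation p = 0.0667, the smallest that 4 against 2 allow, BH-adjusted p = 0.381) and 1.44-fold higher in carcinoma areas than in NMG (exact permutation p = 0.0952, smallest possible 0.0476, BH-adjusted p = 0.381). For EMT-like areas against NMG it was 1.30-fold higher (exact permutation p = 0.361, BH-adjusted p = 0.857). Carcinoma and EMT-like areas differed 1.11-fold (exact permutation p = 0.551, BH-adjusted p = 0.857). Within animal labels, however, including the label that names 3 animals, the carcinoma area had the higher ratio in 4 of 4. The mean log2 difference was 0.54 (exact sign-flip permutation p = 0.125, the smallest possible). Without pairing by animal, the difference of group means had opposite signs in the 2 series of animals. It was 0.75 in the lettered and -0.22 in the numbered series (exact permutation p = 0.200 and 0.571). The highest ratio of all, 22.7, came from EMT-like replicate 5, where the 5p value was 92, the lowest of the EMT-like areas.

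Whether the strands move together was examined in the 7 EMT-like areas, a group large enough for a correlation over samples. Pearson's r of the normalized log2 values was 0.46 (exact permutation p = 0.302) and Spearman's rho 0.57 (exact permutation p = 0.200). Without the 2 samples farthest from the median of miR-126-3p, r was 0.94 over 5 samples, and without scaling between lanes it was 0.38 over 5 samples. The correlation within this group did not pass the test. Some of these samples come from the same series of animals, and both strands share each lane's scaling. As a description across tissues, r between the strands was 0.98 over all 24 samples, which fall into far-apart groups, and 0.87 over the 16 tumor samples.

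The mouse miRNAs whose pattern was most like that of miR-126-3p were taken by Pearson correlation of normalized log2 values among 180 miRNAs with a mean of at least 20. Over all 24 samples these were miR-342-3p (r = 0.99), miR-10a (0.98), miR-1839-5p (0.98), miR-199a-3p (0.97) and miR-199a-5p (0.97). None of these 5 exceeded the detection limit in any culture, and the high r rests in part on that gap. miR-199a-3p and miR-199a-5p, the strands of a miRNA abundant in fibroblasts, differed from miR-126 in their order of normal tissues: the mean normalized value of miR-199a-3p was 5992 in NMG and 3010 in normal lung. Over the 16 tumor samples alone the first 5 were miR-10a (r = 0.70), miR-29c (0.57), miR-342-3p (0.53), miR-532-5p (0.52) and miR-22 (0.50). miR-10a, which lies in the HoxB cluster and is expressed in endothelium, and miR-342-3p were in both lists. These values are descriptions, since several samples share animals and the miRNAs of a sample share its lane and scaling.

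A list of 26 other miRNAs known from endothelium and angiogenesis was set beside miR-126. Of these, 24 have a probe of their own and 23 were tested. miR-17 and miR-20a are measured only together with a relative, and miR-217 was never above 0. In carcinoma areas against NMG 7 of the 23 were called lower and 2 higher, beside 23.8% and 5.49% of all probes, with a median log2 fold change of -0.25 against -0.68 for all probes. In EMT-like areas 6 were called lower and 3 higher, beside 20.4% and 4.46% of all probes (median -0.55 against -0.30). In metastasis against normal lung 15 were called lower and 0 higher, beside 42.2% and 7.03% of all probes (median -2.03 against -0.90). Each of these counts of lower calls holds 1 miRNA that was above the limit in no sample of either group, miR-296-5p in both tumor areas and miR-18a in metastasis, so 6, 5 and 14 calls rest on a detected value. The counts also moved with the scaling. In metastasis 7 were called lower and 3 higher when lanes were scaled by the 100 most abundant miRNAs or the miRNA total, and all 23 were called lower with no scaling or with the 4 mRNA controls. With no scaling the lower calls numbered 14 in carcinoma and 12 in EMT-like areas. miR-126 itself, at -3.12 and -5.05, lay beyond the median of this list in each of these comparisons.

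Among the list, miR-10a, miR-130a, miR-218, miR-296-5p, miR-322 and miR-503 were called lower, as miR-126 was, in both tumor areas and in metastasis. The group means of miR-296-5p and miR-503 were low throughout, the highest being 12.15 for miR-503 in normal lung. miR-322, the rodent counterpart of miR-424, which is known for its role under hypoxia, had a normalized mean of 1105 in NMG, 1031 in normal lung, 104 in carcinoma and 79.1 in metastasis. It fell by 3.48 in carcinoma areas (SE 0.36) and fell by 3.72 in metastasis (SE 0.37), both called. miR-130a, which promotes angiogenesis by repressing Gax and HoxA5, fell by 1.54 in carcinoma (SE 0.50). It fell by 1.42 in EMT-like areas (SE 0.48) and by 3.04 in metastasis (SE 0.52). miR-218, a regulator of Slit-Robo signalling in vessels, had means of 208 in NMG and 547 in normal lung and was above the limit in 3 of the 16 tumor samples.

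Some other members did not follow miR-126. miR-221, which represses Kit in endothelial cells, was higher than in NMG by 1.91 in carcinoma (SE 0.60, limma adjusted p = 0.0195) and by 2.12 in EMT-like areas (SE 0.57, adjusted p = 0.00794), and it was detected in all 4 cultures with a normalized mean of 248. miR-23b rose by 1.30 and 1.08 in the same comparisons and fell by 2.03 in metastasis against normal lung. The members called higher against NMG numbered 0 with no scaling or with scaling by the 4 mRNA controls, and 5 and 6 in carcinoma and EMT-like areas with scaling by the miRNA total. miR-18a, miR-92a, miR-296-5p and miR-503 were a separate case, under the limit in all 16 tumor samples. All 4 were called lower in metastasis against normal lung, and miR-296-5p and miR-503 also in both tumor areas against NMG. The highest normalized mean among them in a normal tissue was 24.3, for miR-92a in normal lung. In all, 7 of the 23 exceeded the limit in all 4 cultures and 9 in none, so several miRNAs of this list are also made by the tumor cells.

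miRNAs that mark other cells of the captured tissue moved in the same comparisons, in which 23.8%, 20.4% and 42.2% of all probes were called lower (carcinoma and EMT-like areas against NMG and metastasis against normal lung). All 3 red cell markers, miR-144, miR-451 and miR-486, were called lower in carcinoma and EMT-like areas against NMG and in metastasis against normal lung. Their summed normalized value was 49121 to 55994 in normal lung, 8118 to 8509 in NMG, 348 to 533 in metastasis, 92.6 to 297 in EMT-like areas and 83.7 to 225 in carcinoma areas, and all 3 were under the limit in the cultures. With scaling by the 100 most abundant miRNAs, 2 of the 3 red cell markers were called lower in EMT-like areas. Both smooth muscle and pericyte markers, miR-143 and miR-145, were called lower in the same 3 comparisons, with sums of 9932 to 13953 in normal lung, 6039 to 7591 in NMG and 688 to 1689 over the tumor samples. The tumor cells themselves carried part of this signal, with sums of 404 to 1371 in the cultures. The part of these cell types in the fall of miR-126 was not tested.

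The other marker lists followed less evenly, to be read beside the same shares of 23.8%, 20.4% and 42.2% of all probes called lower. Of 4 leukocyte markers, 3 were called lower in each of the 3 comparisons, and sums were 4668 to 6114 in normal lung, 2500 to 5613 in NMG, 230 to 887 over the tumor samples and 99.1 to 139 in the cultures. miR-142-5p went the other way in carcinoma areas and in metastasis. Of 3 fibroblast markers, 2 were called lower in each, with sums of 8645 to 9125 in NMG, 4459 to 4617 in normal lung, 230 to 2844 over the tumor samples and 4.66 to 26.1 in the cultures, where all 3 were under the limit. All 3 adipose-linked markers were called lower in each, with sums of 1589 to 1679 in NMG, 918 to 975 in normal lung, 119 to 285 over the tumor samples and 81.5 to 249 in the cultures. Of 4 skeletal muscle markers 2, 1 and 3 were called lower, and miR-1 had no mean above 0 in any tumor group. The 7 epithelial markers were the exception: 1 was called lower in carcinoma areas and 1 in metastasis, against 4 in EMT-like areas, with sums of 930 to 5385 in carcinoma, 2509 to 4671 in metastasis, 59.4 to 1758 in EMT-like areas, 2925 to 4061 in NMG, 5068 to 6063 in normal lung and 54.5 to 112 in the cultures. The epithelial counts depended on the scaling, with 7 called lower in EMT-like areas and 4 in metastasis with no scaling or the 4 mRNA controls. With scaling by the miRNA total the leukocyte and skeletal muscle markers called lower in metastasis numbered 1 each, and the adipose-linked markers 2. For these lists too, their part in the result was not tested.

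**Figure D4:**
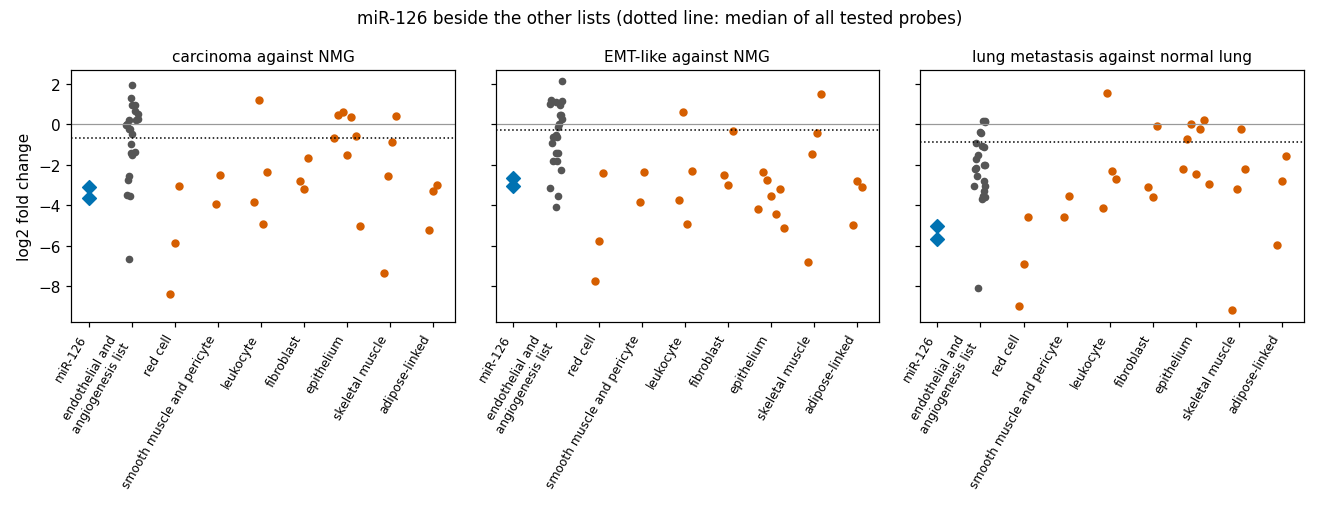
Log2 fold changes against the matching normal tissue (vertical axis) of the 2 strands of miR-126 (diamonds), of the 23 miRNAs of the endothelial and angiogenesis list (grey) and of the marker miRNAs of other cell types (orange), 1 panel per comparison. miR-126 lies under the dotted median of all probes in each panel, as do all 3 red cell markers, whereas several epithelial markers lie near 0 in carcinoma and metastasis.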

How the data were processed

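The deposited values of 24 nCounter lanes are, per the file's own values, counts minus the mean of the lane's 6 negative controls. The study's notes name Partek for analysis. Of the miRNA values 35.2% were below 0. Values were floored at 0, scaled between lanes with a Python version of TMM (the outer 30% of log ratios and 5% of levels trimmed, against carcinoma replicate 2) and tested as log2(value + 1) with limma-trend 3.58.1 in R 4.3.3, all 7 groups in one fit, Benjamini-Hochberg over 583 probes above 0 in at least 1 lane. The study's methods state no model for this assay, and the main fit has no block. Since tumor areas share animals, the animal label was tried as a block. The correlation that limma estimated within a block was -0.0051, so that fit is nearly the main fit. The correlation of deviations from group means within an animal label had a median of 0.21 (10 pairs, 114 probes, range -0.49 to 0.68). Its median was 0.11 between other animals of a series and -0.14 between series. Strand ratios used deposited values and exact permutation tests. On simulated data with known changes the procedure recovered the abundant probes in each comparison, and false calls among all probes exceeded the threshold in some, most with the cultures. The named miRNAs were both strands, the 5 most similar miRNAs over all and over tumor samples, and listed endothelial miRNAs called against a normal tissue. The members, by name, and the lists and settings were chosen with earlier results of these data known. Replicates are labelled as biological.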

Additional observations from a re-analysis of the deposited data

Results flagged for a closer look

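The difference of tumor from normal tissue was larger in lung than in mammary gland for both strands of miR-126, by a test of the difference itself: the log2 difference of differences was -2.19 for miR-126-3p and -2.38 for miR-126-5p. These values come almost wholly from normal lung exceeding NMG (2.30 and 2.42), since metastasis and PT differed by 0.11 and 0.04. They do not show that metastases hold less miR-126 than PT. Both differences of differences rest on 2 samples of each normal tissue, and both calls were lost with 2 of the 4 other scalings. Of 9 sets of values examined (both strands and their ratio in carcinoma, EMT-like and metastasis samples), 0 held an outlying sample. Sets of 4 to 7 samples leave such an examination little power. Lung metastasis replicate 3 still carried most of the spread of its group, 43.8% with it and 12.4% without it for the 3p strand.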

How the results depend on the processing

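Over 408 alternative values for the 2 strands, 378 kept direction and side of the threshold. All 148 for carcinoma and EMT-like areas against NMG, metastasis against normal lung and cultures against PT did so. Of these, the 25 per strand for cultures against PT carry only an adjusted p. They rest on culture values at the floor, so their call could hardly change. Another scaling moved the median of all probes by -1.33 to 0.42 in carcinoma against NMG and by -2.08 to 1.19 in metastasis against normal lung, and the cause was not tested. For metastasis against PT, never called, the sign turned with no scaling (-0.46 and -0.52 for the 3p and 5p strands), scaling by the 4 mRNA controls (-0.19 and -0.25) and the higher background (-0.46 and -0.67). Leaving out samples gave -0.10 to 0.54 and -0.23 to 0.53. Metastasis against carcinoma turned with the mRNA controls for the 3p strand (-0.022) and with the higher background for the 5p strand (-0.011). Metastasis against EMT-like areas ran from -0.28 to 0.36 and from -0.47 to 0.29 without single samples.

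The call of normal lung against NMG was lost for the 3p strand with only the groups compared (2.30) and for the 5p strand with scaling by the 100 most abundant miRNAs (1.53) or the miRNA total (1.55). Without single samples the 5p value ran from 2.19 to 2.65. The difference between organs was no longer called with these 2 scalings, at -1.25 and -1.28 for the 3p strand and -1.45 and -1.47 for the 5p strand. Without single samples it ran from -2.54 to -1.76 and from -2.65 to -1.89. Of 98 alternatives for the strand ratio 9 turned its sign, none of them called: metastasis against carcinoma with the higher background (0.039), within the numbered series (0.22) and without single samples (-0.086 to 0.096), metastasis against PT without single samples (-7.02e-05 to 0.14), normal lung against NMG without single samples (-0.27 to 0.014), and carcinoma against EMT-like areas within the numbered series (-0.22). With the animal as replicate block, 23 of 23 values kept their call, for example -0.43 (limma adjusted p = 0.484) for miR-126-3p in carcinoma against EMT-like areas. That fit could hardly change a call, since the correlation estimated within a block was -0.0051. The strand ratio values among the 23 came from exact sign-flip permutation tests with a smallest possible p of 0.125 or 0.5. The 3D-sphere comparison has no value because both groups were under the limit. Where a normal tissue kept 1 sample, it was assumed to vary like the other groups. The 5p strand, at 37 to 243 counts in tumors, limits the precision of the ratio.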
